A study of Mus musculus with 3 samples.

Results

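The 10 genes described here set or oppose the loss of muscle protein, and were followed in adult mouse hearts carrying the label Lrrc10-/-. The genes were chosen by name as 4 muscle ubiquitin ligases (Fbxo32, Trim63, Trim54 and Trim55), 2 Foxo transcription factors (Foxo1 and Foxo3), the growth inhibitor Mstn, the catalytic subunits of calcineurin Ppp3ca and Ppp3cb, and the calcineurin regulator Rcan1. The array's gene names gave 16 probes for the 10 genes, of 41174 probes in all, and the older name Foxo3a added 2 more. Of these 18 probes, 16 passed the minimum mean processed signal of 20, were well above background in every reading of both channels and were saturated in none, so that all 10 genes were tested with at least 1 probe among 20200 tested genes.

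Each of 3 two-colour Agilent arrays compared RNA of hearts of C57/BL6 mice aged 2 months. The Cy5 channel was labelled Lrrc10-/- and each such sample was a pool of 2 hearts, numbered here as replicates 1 to 3. The Cy3 channel was labelled wild type (WT, Lrrc10+/+) and held a reference made from 2 hearts. Lrrc10 encodes a leucine-rich repeat protein of heart muscle, and Lrrc10-/- denotes its deletion. The dyes were not swapped on any array, so genotype and dye cannot be told apart. The labels call the WT sample a reference pool on every array and the methods speak of littermates and 3 biological replicates, which does not settle whether 1 WT pool or several were hybridised.

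The Lrrc10 probe went against the labels. On replicates 1 to 3 it read 476.5, 442.6 and 352.3 in Cy3 against 14280, 20830 and 17700 in Cy5 (processed signal), so that it was 41.4-fold brighter in the channel labelled Lrrc10-/- (mean log2 ratio 5.37 ± 0.41, SD, n = 3; limma adjusted p = 2.62e-04). Where this probe lies relative to the deleted sequence was not determined, and a probe outside it would not report the deletion. Why the channels differed 41.4-fold at this probe was not tested. The atrial and stress gene Nppa was dimmer in Cy5 on each array (log2 ratios -0.89, -0.61 and -0.82), as were the contractile genes Tnni3 (-0.36, -0.13 and -0.10) and Mybpc3 (-0.41, -0.15 and -0.14), both saturated on at least 1 array. With the dyes as labelled, the directions of these genes oppose those the study gives for the knockout. Every direction below is therefore given by channel, as the ratio of Cy5, the channel labelled Lrrc10-/-, to Cy3, the channel labelled WT. The log2 ratios of different arrays were nearly unrelated across the tested probes, with Pearson's r of 0.0968 between replicates 1 and 2, -0.0371 between 1 and 3 and -0.184 between 2 and 3. Probes are not independent replicates. Median processed signals lay between 124.8 and 173.7, from 28942 to 30810 gene spots were well above background and from 55 to 197 were saturated in a channel. All 11 cardiomyocyte markers were well above background on every array, and 8 were saturated on at least 1. On every array 5 of the 11 favoured Cy3, as 12.3% of all genes did, and their summed level, as log2 signal less the 75th percentile of the channel, ranged from 10.4 to 10.55 in Cy3 and from 10.1 to 10.26 in Cy5. Myl2 and Tnnt2, both saturated, met the selection by array p described below in favour of Cy3, and the part of this in the ratios below was not tested. In bulk tissue, fewer cells of a type and less RNA per cell cannot be told apart.

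Muscle loses protein largely through the ubiquitin-proteasome system, in which E3 ligases choose the proteins to be degraded. Fbxo32 (MAFbx) and Trim63 (MuRF1) are the classic ligases of muscle wasting, and their genes are switched on by Foxo factors when insulin and Akt signalling is low. Myostatin, the product of Mstn, restrains muscle growth through activin receptors and Smad proteins. Calcineurin is a calcium-dependent phosphatase that activates NFAT factors and drives heart growth, and Rcan1 is both its inhibitor and an NFAT target.

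Probes are 60-base oligonucleotides, and those on which the values below turn are shown by their first 30 bases as they stand in the array files, 5′ to 3′ and without capitals because no part of a probe is singled out. Both probes are given for Trim63, whose means differed in sign, and for Rcan1, which differed on replicate 3, and for Fbxo32 and Ppp3cb the brightest probe is given because its ratio kept 1 sign on all 3 arrays.
Fbxo32: gagaaggagatctcagggcttaaggagtta
Trim63 brightest probe: ccaaaacgtcacaggacacttttctacgtt
Trim63 second probe: aaacagacaaacaaacaaaaaaccgatcca
Rcan1 brightest probe: tgggaactgttggttgagacagtttttcac
Rcan1 second probe: tggggaaggaaatgaagttgtattttgctc
Ppp3cb brightest probe: gcatgtgcaggactattcaagtattttata
The probe that the array names Foxo3 is described in the same files as tubulin polymerization-promoting protein family member 2, so its name and its description disagree. It was not well above background in any channel and is shown whole because it is the only probe carrying that name.
probe named Foxo3: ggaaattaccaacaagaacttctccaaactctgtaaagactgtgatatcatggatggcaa
Foxo3 itself was read from probes with the older name Foxo3a. The brighter of these matches the transcript clone AK079567, and the other, for the RefSeq transcript, was not well above background in any channel.

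Promoter sequences (RefSeq, GRCm38.p6, the 250 bases before each start) matched 7 of the 10 genes and gave 8 promoters, with entries for Fbxo32, Trim55 and Ppp3ca missing. They were searched on both strands for the letters GTAAACA (a Foxo motif, TGTTTAC on the other strand), CAAAACA (a Foxo insulin response motif, TGTTTTG) and GGAAAA (an NFAT core, TTTTCC). The Foxo letters were in 1 of the 8 promoters, that of Trim63, and in 3.17% of all 32851 promoter windows of that length. The insulin response letters were in 0 of 8 promoters (5.56% of all windows). The NFAT letters were in 4 of 8, those of Foxo1, Trim54, Ppp3cb and the downstream start of Rcan1 (20.4% of all windows). The promoters of Trim63 and Rcan1 are shown because they belong to a ligase known as a Foxo target and a regulator known as an NFAT target; capitals mark the matches, which are descriptions of letters and not of binding.
Trim63, chr4:134314870-134315119, plus strand: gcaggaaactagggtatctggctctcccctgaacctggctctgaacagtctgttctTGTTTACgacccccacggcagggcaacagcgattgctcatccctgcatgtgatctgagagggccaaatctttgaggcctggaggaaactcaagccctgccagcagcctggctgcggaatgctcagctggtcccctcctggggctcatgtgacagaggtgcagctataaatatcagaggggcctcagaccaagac
Rcan1 downstream start, chr16:92400079-92400328, minus strand: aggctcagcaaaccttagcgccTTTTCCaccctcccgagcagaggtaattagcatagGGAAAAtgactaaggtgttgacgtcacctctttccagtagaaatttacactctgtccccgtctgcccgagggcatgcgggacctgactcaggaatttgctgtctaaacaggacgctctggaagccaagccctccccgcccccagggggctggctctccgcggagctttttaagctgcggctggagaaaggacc
The match in the Trim63 promoter begins 194 bases before the start, and those in the Rcan1 promoter begin 228 and 193 bases before it.

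No atrophy gene was called as different between the channels. In the limma fit over 29606 probes, 0 of the 16 tested probes passed an adjusted p of 0.05, with a lowest adjusted p of 0.99997 by limma. In the whole array 0.00676% of tested probes were called. At an unadjusted limma p under 0.05 stood 1 of the 16 probes, the second probe of Trim63, against 3.07% of all tested probes, and 0 genes by their brightest probe, against 3.34% of all genes. The study's methods ask for a ratio of at least 1.2 in 1 direction on all 3 arrays and a p under 0.05, and their general test is the one called the methods' t-test here. Taken as the array p on all 3 arrays, this selection took 0 of the 10 genes and 1.05% of all genes. When the methods' t-test supplied the p instead, it took 1 of the 10, Ppp3cb, and 2.26% of all genes. The ratio alone, with no p, was met by 1 of the 10 genes, Ppp3cb in Cy5 (1.60% of all genes in that direction). The methods' t-test without adjustment also took 1 gene, again Ppp3cb, where it took 4.52% of all genes, and it took 0 after Benjamini-Hochberg adjustment.

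Mean log2 ratios of the 10 genes ran from -0.49 for Rcan1 to 0.41 for Foxo3, which was read from a dim Foxo3a probe alone. Their median was 0.01 beside -0.01 over all genes. The SD over arrays exceeded the size of the mean in 6 of the 10 genes, and its median was 0.32 beside 0.37 over all genes. Foxo3 and Ppp3cb were brighter in Cy5 on all 3 arrays (2 of 10 genes, where 9.46% of all genes were) and Fbxo32 was brighter in Cy3 on all 3 (1 of 10, where 12.3% of all genes were). The other 7 changed sign between arrays. The median ratio of the 10 genes was 0.02, -0.17 and 0.20 on replicates 1 to 3, beside 0.0040, 0.036 and -0.058 over all genes, and 5, 3 and 7 of them were brighter in Cy5.

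**Figure D1:**
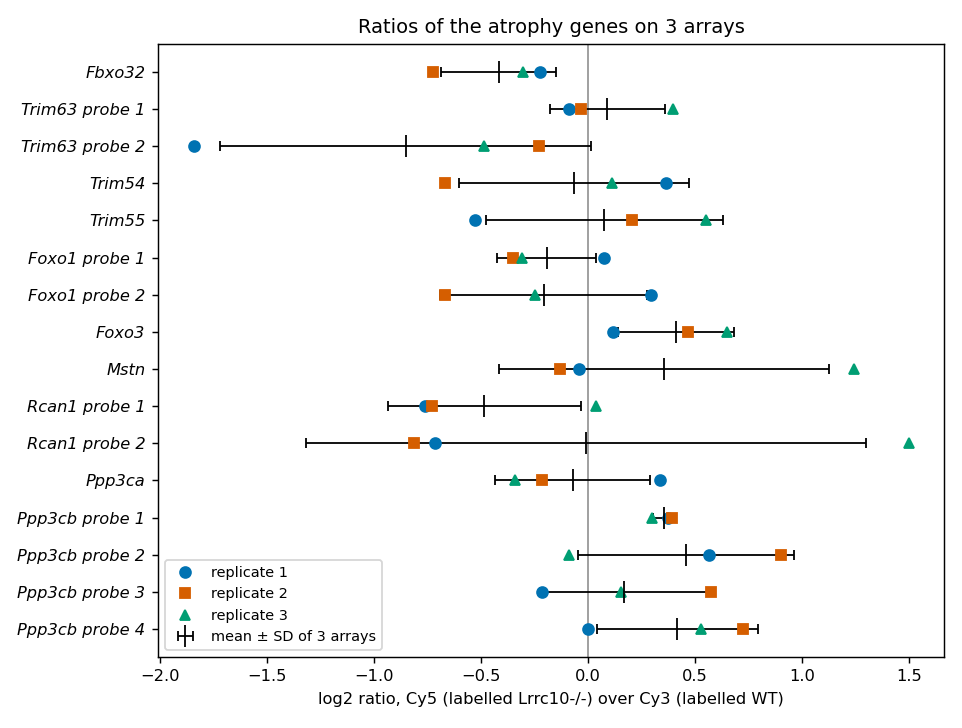
Horizontal axis: log2 of the ratio of the channel labelled Lrrc10-/- (Cy5) to that labelled WT (Cy3), for the 16 tested probes, with 1 symbol per array and the mean ± SD of 3 arrays in black. Most probes have symbols on both sides of 0, and the brightest Ppp3cb probe has its 3 symbols together between 0.30 and 0.39.

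Fbxo32 was lower in the channel labelled Lrrc10-/- on each array, though not beyond the error of the fit. The Cy3 channel read 2657, 4970 and 2798 (processed signal) and the Cy5 channel 2276, 3008 and 2267. The Cy5 values of replicates 1 and 3 were nearly equal, both channels were brightest on replicate 2, and the channels overlapped. The log2 ratios were -0.22, -0.72 and -0.30, with a mean of -0.42 ± 0.27 (SD, n = 3), or 1.34-fold in favour of Cy3, and a 95% limma interval of -0.86 to 0.03. The direction turned under 1 alternative, normexp background correction with median centring and no loess, which gave 0.14. The Fbxo32 mean was -0.26 without replicate 2 and -0.25 with normexp and loess. On replicate 2, where the Fbxo32 ratio was lowest, the atrial genes Sln (97.9 in Cy3, 1264 in Cy5) and Myl7 (284.5 in Cy3, 3021 in Cy5) were high in Cy5, and on the other arrays each was below 250 in both channels. These were picked after their values were seen from 6 atrial markers, of which 5 were tested and 4 were well above background throughout, and the summed level of the list, as log2 signal less the 75th percentile of the channel, ranged from 6.40 to 6.69 in Cy3 and from 5.57 to 5.92 in Cy5. Their part in the Fbxo32 ratio was not tested.

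Trim63 gave different answers with its 2 probes. The brightest, for the RefSeq transcript, read 21550, 32290 and 15920 in Cy3 and 20240, 31510 and 20950 in Cy5. Both channels were thus highest on replicate 2, and only replicate 3 differed by channel. The log2 ratios were -0.09, -0.04 and 0.40 (mean 0.09 ± 0.27, SD, n = 3; 95% limma interval -0.36 to 0.54), and without replicate 3 the mean was -0.063. With normexp the mean of this Trim63 probe was 0.24 after loess and 0.69 after median centring. The second probe, for the clone AK052911, read 5490, 3352 and 4213 in Cy3 and 1531, 2863 and 3010 in Cy5. Its log2 ratios were -1.84, -0.23 and -0.48 (mean -0.85 ± 0.87, SD, n = 3; limma interval -1.57 to -0.14). The limma p was 0.0251 before adjustment and 0.99997 after it. The lowest ratio came from replicate 1, whose Cy5 reading was the lowest of the 6.

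The 2 Trim63 probes lay 0.94 log2 units apart on average over the arrays, with the brightest probe higher in Cy5 over Cy3 on all 3 (differences 1.75, 0.19 and 0.88). An exact two-sided sign-flip test gave p = 0.25, the smallest that 3 arrays allow. Among 5714 genes with at least 2 tested probes well above background and unsaturated, 2.78% had their 2 brightest probes as far apart, the median distance was 0.30, and 36.0% of pairs had means of opposite sign. The distances were 0.53 for Rcan1, 0.36 for Ppp3cb and 0.20 for Foxo1. The mean of both Trim63 probes was -0.38.

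**Figure D2:**
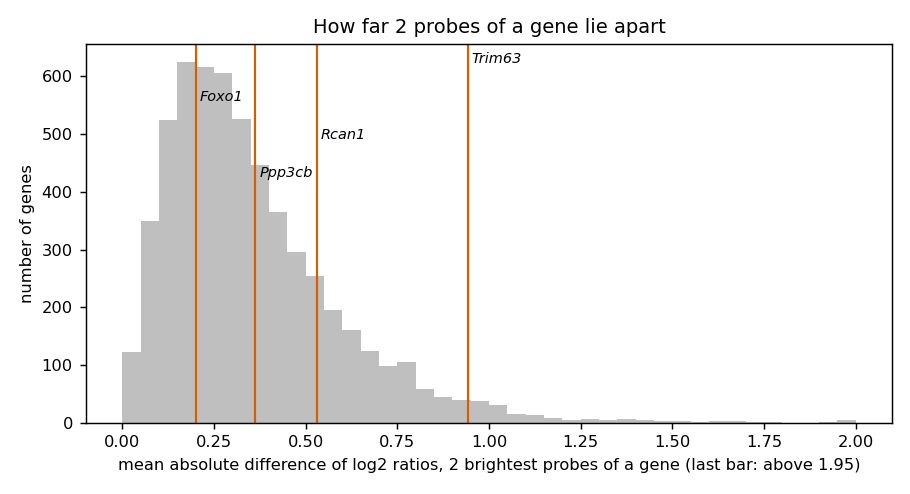
Number of genes (vertical axis) by the mean absolute difference of log2 ratios between their 2 brightest probes (horizontal axis, log2 units) for 5714 genes, with 4 atrophy genes as lines. Trim63 at 0.94 lies in the upper tail, while Foxo1 at 0.20 lies below the median of 0.30.

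Trim54 and Trim55 encode the partners of Trim63 at the sarcomere, where the family binds titin and microtubules. Trim54 was bright throughout, at 53580, 119300 and 50940 in Cy3 and 68860, 74980 and 54960 in Cy5. A single reading, Cy3 of replicate 2, stood above the rest. The log2 ratios of 0.36, -0.67 and 0.11 averaged -0.07 ± 0.54 (SD, n = 3; 95% limma interval -0.63 to 0.49). The Trim54 mean was 0.24 without replicate 2, -0.29 with normexp and loess and 0.17 with normexp and median centring. Trim55 read 1897, 2438 and 883.1 in Cy3 and 1315, 2813 and 1295 in Cy5, and the channels overlapped. Its log2 ratios of -0.53, 0.21 and 0.55 averaged 0.08 ± 0.55 (SD, n = 3; 95% limma interval -0.48 to 0.64), and -0.16 without replicate 3. With normexp the Trim55 mean was 0.19 after loess and 0.53 after median centring.

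Foxo1, the forkhead factor downstream of Akt, gave the same small value with both of its probes. The brightest read 1383, 2433 and 2113 in Cy3 and 1457, 1911 and 1706 in Cy5. Its log2 ratios were 0.07, -0.35 and -0.31, with a mean of -0.19 ± 0.23 (SD, n = 3; 95% limma interval -0.64 to 0.25). The second probe averaged -0.21 ± 0.48 from 0.29, -0.67 and -0.25. On both probes replicate 1 had the opposite sign to the other arrays, and normexp with median centring turned the Foxo1 mean to 0.26. That mean was -0.33 without replicate 1, -0.12 without replicate 2 and -0.10 with normexp and loess. Foxo3, whose product shares targets with Foxo1, was dim on the tested Foxo3a probe, at 51.05, 73.09 and 32.83 in Cy3 and 55.39, 101.1 and 51.56 in Cy5. Each array read higher in Cy5, and the channels overlapped across arrays. The Foxo3 log2 ratios were 0.12, 0.47 and 0.65 (mean 0.41 ± 0.27, SD, n = 3; 95% limma interval -0.26 to 1.09), and with normexp and loess the mean was 0.08. The file describes the clone of this probe as unclassifiable, so its reading of Foxo3 rests on the older name alone.

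Mstn was dim and stood apart on a single array. The Cy3 channel read 53.71, 103.8 and 39.79 and the Cy5 channel 52.09, 94.67 and 94.28, so that the channels were nearly equal on replicates 1 and 2. The log2 ratios were -0.04, -0.13 and 1.24, with a mean of 0.36 ± 0.77 (SD, n = 3; 95% limma interval -0.46 to 1.17), and the mean was -0.088 without replicate 3. With normexp the Mstn mean was 0.050 after loess and 0.040 after median centring. Skeletal muscle, the main source of myostatin, was followed by 15 markers, of which 14 were tested and 13 were well above background on all arrays. On replicate 3 their median log2 ratio was -0.27, and 10 of the 14 were brighter in Cy3 and 4 in Cy5. Their summed level there was 7.34 in Cy3 and 7.56 in Cy5, with Myh4, saturated on at least 1 array, as its brightest probe (97650 in Cy3, 122200 in Cy5). Over the arrays the summed level, as log2 signal less the 75th percentile of the channel, ranged from 7.34 to 8.01 in Cy3 and from 7.47 to 7.56 in Cy5, and the part of skeletal muscle in the Mstn ratio was not tested.

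Rcan1, the regulator of calcineurin, was lower in Cy5 on 2 of the 3 arrays. The brightest probe read 9344, 13040 and 5193 in Cy3 and 5515, 7859 and 5321 in Cy5. The Cy3 readings of replicates 1 and 2 stood above those of their Cy5 partners, while replicate 3 was equal in both channels. The log2 ratios of -0.76, -0.73 and 0.04 averaged -0.49 ± 0.45 (SD, n = 3; 95% limma interval -0.99 to 0.02). The mean was -0.75 without replicate 3, where Rcan1 met the selection by array p on the other arrays together with 6.86% of all genes. With normexp it was -0.18 after loess and 0.24 after median centring. The second Rcan1 probe, for the same transcript, read 897.5, 1401 and 78.6 in Cy3 and 547.5, 797.1 and 222 in Cy5, with log2 ratios of -0.71, -0.81 and 1.50. The 2 probes were thus within 0.09 of each other on replicates 1 and 2 and 1.46 apart on replicate 3, where the second probe was dim in both channels. The red cell genes Hba-a1 (0.96 and 0.96, saturated on at least 1 array), Alas2 (0.63 and 1.04) and Slc4a1 (0.45 and 0.59) had log2 ratios of the opposite sign to Rcan1 on replicates 1 and 2. The leukocyte genes were mixed there, with Ptprc at -0.26 and -0.40, Cd68 at 0.08 and 0.13 and Lyz2 at -0.07 and 1.08. Of 8 blood markers, 6 were tested and 2 were saturated on at least 1 array, their median log2 ratio was 0.27, 0.78 and -0.02 on replicates 1 to 3, and their summed level ranged from 6.91 to 7.77 in Cy3 and from 7.80 to 7.92 in Cy5. The part of blood in the Rcan1 ratio was not tested.

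Of the calcineurin subunits, Ppp3ca changed sign between arrays and Ppp3cb did not. Ppp3ca, the alpha catalytic subunit, read 5709, 10830 and 8887 in Cy3 and 7216, 9339 and 7016 in Cy5, and the channels overlapped. Its log2 ratios of 0.34, -0.21 and -0.34 averaged -0.07 ± 0.36 (SD, n = 3; 95% limma interval -0.54 to 0.40), with 0.062 without replicate 3, and with normexp -0.30 after loess and 0.12 after median centring. Ppp3cb, the beta catalytic subunit, read 5871, 8494 and 5007 in Cy3 and 7598, 11140 and 6160 in Cy5. It was brighter in Cy5 on each array by nearly the same amount, although the channels overlapped across arrays. The log2 ratios of 0.37, 0.39 and 0.30 averaged 0.35 ± 0.05 (SD, n = 3), or 1.28-fold, and an SD as small was found in 1.57% of 17755 genes well above background. The limma interval, which borrows its spread from all probes, was -0.05 to 0.76, and no array alone gave this probe an array p under 0.05. The other probes of Ppp3cb averaged 0.46 ± 0.50, 0.17 ± 0.39 and 0.42 ± 0.38, so that all 4 probe means lay above 0, while each of the 3 had 1 array at or below 0. The array p was under 0.05, in favour of Cy5, on replicates 1 and 2 for the probe at 0.46. It was so on replicate 2 for the probe at 0.17 and on replicates 2 and 3 for that at 0.42.

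The channel labelled WT varied more between arrays than the channel labelled Lrrc10-/-. With each signal taken as log2 less the 75th percentile of its array and channel, the SD over arrays was larger in Cy3 than in Cy5 for 8 of the 10 genes, where it was so for 79.4% of 17755 genes well above background. The share among the atrophy genes was thus near that of the array. The median SD of the 10 genes was 0.39 in Cy3 and 0.14 in Cy5, beside 0.35 and 0.20 over all genes well above background. Rcan1 had an SD of 0.40 in Cy3 and 0.05 in Cy5, and Ppp3ca of 0.41 and 0.09. The exceptions were Mstn (0.39 in Cy3, 0.51 in Cy5) and Ppp3cb (0.07 in Cy3, 0.13 in Cy5).

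**Figure D3:**
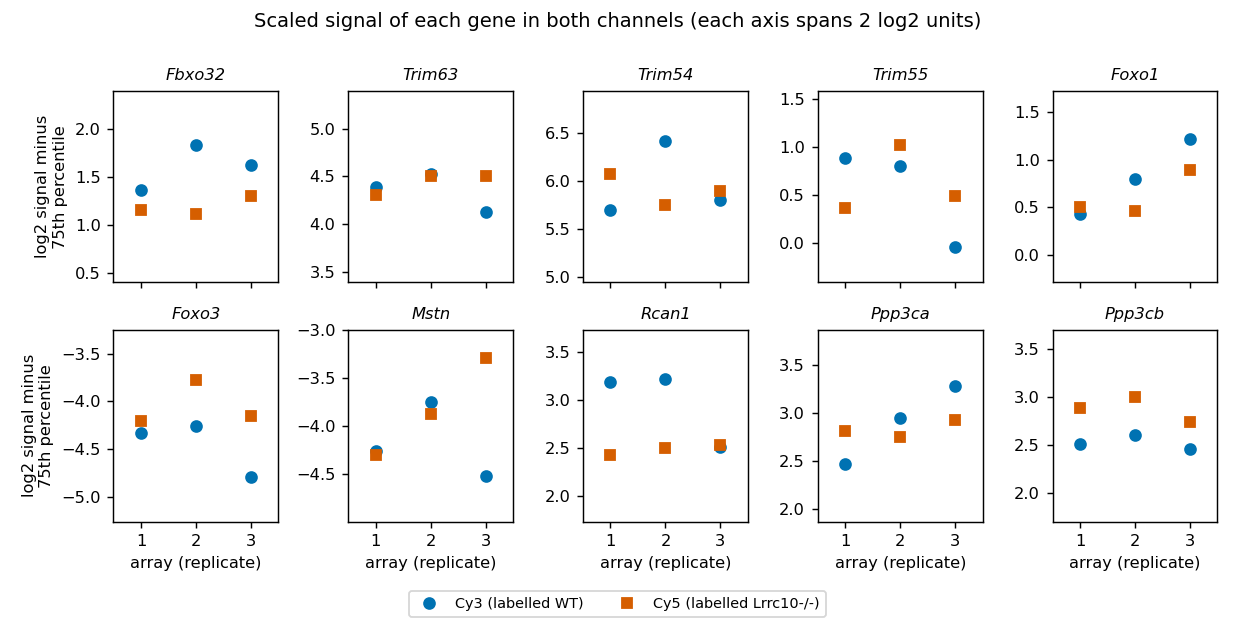
Level of each gene by its brightest probe, as log2 processed signal less the 75th percentile of that array and channel (vertical axis, each spanning 2 log2 units), on arrays 1 to 3 (horizontal axis), with circles for Cy3 (labelled WT) and squares for Cy5 (labelled Lrrc10-/-). The squares of Rcan1 span 0.10 while its circles span 0.71, and levels of different genes are not comparable.

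The ligases, factors and signalling genes that work with these 10 genes were read from 5 lists. Of 29 other muscle ubiquitin ligases tested, limma called 0, where 0.00990% of all genes were called. On every array 3 of them favoured Cy5 and 0 favoured Cy3, or 10.3% and 0% of the list, beside 9.46% and 12.3% of all genes, and their median log2 ratio was 0.08. The 3 were Cul3, the scaffold of cullin-RING ligases (0.30 ± 0.26, SD, n = 3), Cbl, a ligase of receptor kinases (0.24 ± 0.05), and Fbxo30, an F-box protein linked to denervation atrophy (0.21 ± 0.04). Cbl was dim, with processed signals from 56.07 to 123.4. Of 27 tested genes of the Foxo family and its targets, limma called 0. On every array 4 favoured Cy5 and 5 favoured Cy3, or 14.8% and 18.5% of the list beside the same all-gene shares, and the median was -0.05. The largest means among those favouring Cy5 were Foxo6 at 0.58 ± 0.48, the mitophagy gene Bnip3 at 0.44 ± 0.39 and the metabolic factor Klf15 at 0.37 ± 0.20. The largest among those favouring Cy3 were Cdkn1a, Ddit4 (-0.60 ± 0.52), an inhibitor of mTORC1, and Eif4ebp1 (-0.38 ± 0.13), a brake on translation.

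Cdkn1a, the cell cycle inhibitor p21, was the only gene of these pathway lists that the selection by array p took. The selection took 1 of 27 tested genes of the Foxo list, beside 1.05% of all genes. It took 0 of 29 other ligases, 0 of 19 insulin and Akt, 0 of 15 myostatin and 0 of 25 calcineurin genes. Cdkn1a favoured Cy3 (0.614% of all genes in that direction). It read 245.4, 405.2 and 668.3 in Cy3 against 170.5, 210.6 and 339.8 in Cy5. The log2 ratios were -0.53, -0.94 and -0.98 (mean -0.82 ± 0.25, SD, n = 3), or 1.76-fold brighter in Cy3, with an unadjusted limma p of 0.00707 that did not hold after adjustment. With normexp the Cdkn1a mean was -0.38 after loess and -0.19 after median centring.

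Of 19 genes of insulin and Akt signalling, limma called 0, while 2 favoured Cy5 and 0 favoured Cy3 on every array (10.5% and 0% of the list, beside 9.46% and 12.3% of all genes; median 0.07). These were Pik3r1, the regulatory subunit of PI3-kinase (0.58 ± 0.22, SD, n = 3), and the kinase gene Gsk3b (0.33 ± 0.36). Of 15 tested genes of myostatin signalling, limma called 0, while 1 favoured Cy5 on every array, Smad2, which carries the signal to the nucleus (0.36 ± 0.20; 6.67% of the list beside 9.46% of all genes; list median 0.13). Of 25 tested genes of calcineurin and NFAT signalling, limma called 0, while 2 favoured Cy5 and 4 favoured Cy3 on every array (8.0% and 16.0% of the list, near the same all-gene shares; median 0.02). Calm2, a calmodulin gene, was at 0.47 ± 0.20 and the factor gene Mef2a at 0.23 ± 0.02 in favour of Cy5, and Nfat5 at -0.39 ± 0.13, the subunit gene Ppp3r2 at -0.23 ± 0.29 and Calm3 at -0.21 ± 0.12 in favour of Cy3. Ppp3r2 was dim, with processed signals from 78.62 to 124.5. The sign of Mef2a turned with normexp and loess (-0.04) and that of Calm3 with normexp and median centring (0.40), while the other 15 of these 17 named genes kept theirs under both. Their sizes moved all the same. With normexp and loess Gsk3b stood at 0.055 and Ppp3r2 at -0.056. After median centring Cul3 stood at 0.84, Klf15 at 1.03, Nfat5 at -0.091 and Ddit4 at -0.20.

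**Figure D4:**
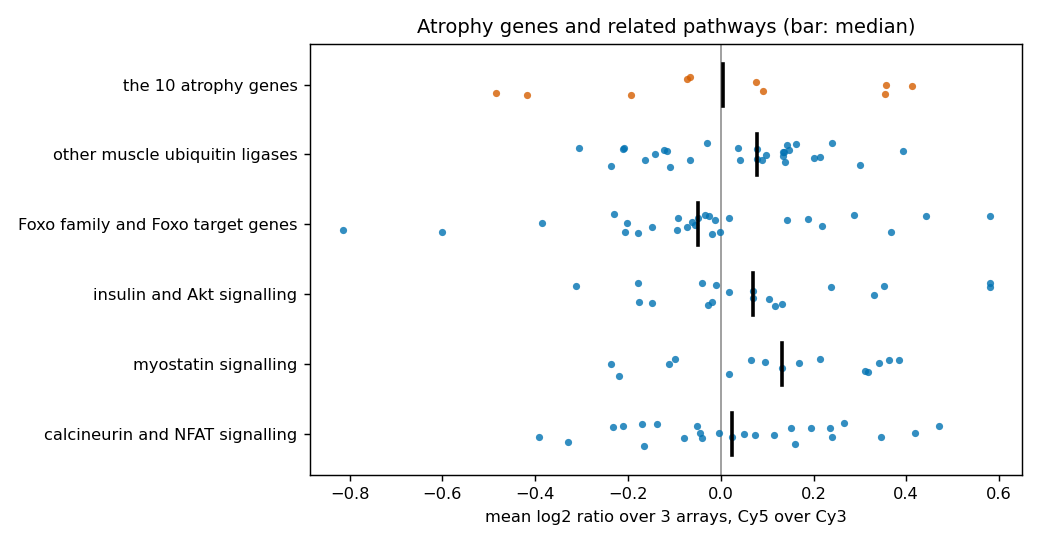
Mean log2 ratio over 3 arrays, Cy5 over Cy3 (horizontal axis), of each tested gene in the 10 atrophy genes and in 5 related lists (rows), with a black bar at each median. Medians lie between -0.05 and 0.13, and Cdkn1a at -0.82 is the lowest point.

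Many genes elsewhere on the array had ratios close to those of Fbxo32 and Trim63. Among 17723 other genes well above background, the nearest to Fbxo32 by Euclidean distance over the 3 arrays were Mov10l1 (distance 0.03), Kmt2b and Accs (both 0.04), and 81 genes lay within 0.2. Near the brightest probe of Trim63 lay Rrp9 (0.03) and Tmed10 (0.04), with 175 genes within 0.2. With 3 arrays such likeness is a description of the ratios only.

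Several values moved with the background correction and dye normalization. With normexp, median centring and no loess the median of all genes was 0.18 and that of the 10 genes 0.21, and Ppp3cb stood at 1.07, its value with loess being 0.66 and as deposited 0.35. The lowest adjusted p of limma over the 10 genes was then 0.0687, for Ppp3cb, and 0 were called.

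**Figure D5:**
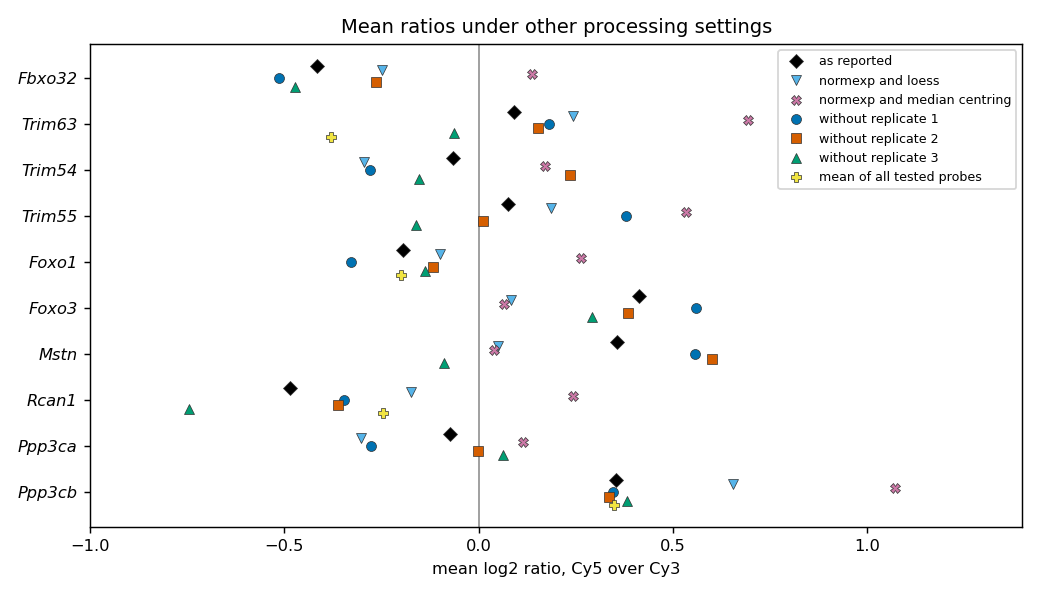
Mean log2 ratio, Cy5 over Cy3 (horizontal axis), of each gene (rows) as reported and under 6 other settings (symbols). Signs of Fbxo32, Trim54, Foxo1, Rcan1 and Ppp3ca turn with normexp and median centring, signs of Trim54, Trim63, Trim55, Mstn and Ppp3ca turn without 1 array, that of Trim63 turns with the mean of its probes, and Ppp3cb and Foxo3 stay above 0 throughout.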

How the data were processed

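RNA of pooled adult hearts was hybridised to 3 two-colour Agilent arrays. The deposited files hold, per the file headers, Feature Extraction 9.1.3.1 output with processed intensity of each channel, already background-subtracted and dye-normalized by the authors' scanner software, and log10 ratios of Cy5 over Cy3, turned here into log2. They also hold the p-value that the authors' scanner software gave each log ratio, used here as the array p. A deposited table of log10 ratios for the whole series held the same ratios and was used as an alternative. Control and outlier spots were left out and spots of a probe averaged. Each gene was read by its brightest probe, and probes disagreeing in sign or by over 2 SD were reported. Gene names came from the files, updated for 24844 probes through RefSeq accessions and for 1810 through synonyms. The ratio against 0 was tested with limma 3.58.1 (R 4.3.3; two-sided, prior variance following intensity), and p-values were adjusted by Benjamini and Hochberg's method over 29606 probes with a mean processed signal of at least 20. The script was tested on simulated data. The WT channel was the reference, so the test leaves out its spread if a single pool served all arrays, and the number of arrays limits the precision. Named pathway genes were up to 3 in each direction with the largest mean, above background, unsaturated and of 1 sign on all arrays. The members, lists and tests were chosen with earlier results of these data known. Alternatives changed the background correction, dye normalization, filter, trend, test, probe choice and replicates. A gene with ratios near those of Trim63 is not reported here.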

Additional observations from a re-analysis of the deposited data

How the results depend on the processing

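No call was made for any of the 10 atrophy genes under any alternative run, and these ratios had adjusted limma p-values from 0.0687 up. The 3 arrays of 1 dye orientation limit every value. Among the brightest probes of the 10 genes, the dim Mstn (-0.46 to 1.17) and Foxo3 (-0.26 to 1.09) had the widest limma intervals. No paired analysis was possible because all arrays form 1 group, beyond the pairing of both channels that each ratio already holds. All 10 genes kept their sign with normexp and loess and without replicate 1. The filters and the intensity trend leave the ratios as they are by construction, and the series table holds the same ratios. With normexp and median centring, where the median of all genes was 0.18, the sign turned for Fbxo32 (0.14), Trim54 (0.17), Foxo1 (0.26), Rcan1 (0.24) and Ppp3ca (0.12). With 1 replicate left out, Trim54 ranged from -0.28 to 0.24 and turned without replicate 2. Trim63 ranged from -0.063 to 0.18, Trim55 from -0.16 to 0.38, Mstn from -0.088 to 0.60 and Ppp3ca from -0.28 to 0.062, and these turned without replicate 3. With the mean of all probes Trim63 was at -0.38. Over the whole array, probes called in Cy5 went from 2 to 1 with normexp and loess, 0 with no filter, 1 at a minimum signal of 50, 0 with the methods' t-test (594 in Cy5 and 650 in Cy3 before adjustment), and from 0 to 411 when 1 replicate was left out. Probes called in Cy3 ranged from 0 to 134 in the same way. The 411 and 134 came without replicate 3. Without replicate 1 the counts were 1 in Cy5 and 0 in Cy3, and without replicate 2 they were 0 and 0. Each of these fits held 2 arrays. Genes of the 10 meeting the selection were 0 as reported, 1 (Ppp3cb) with the p of the methods' t-test or with the ratio alone, and from 0 to 1 when 1 replicate was left out (Rcan1, without replicate 3, where 6.86% of all genes met it). Taking any tested probe of a gene, chosen after seeing the data, called 0 genes. With Aquantile scaling after loess the median SD of the levels was 0.30 in Cy3 and 0.094 in Cy5. The SDs of the dim gene Mstn, 0.39 in Cy3 and 0.51 in Cy5 as reported, were then 0.074 and 0.13. The cause of these shifts was not tested.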
